A study of Mus musculus with 32 samples.

Results

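The intermediate filament genes described here are the keratin genes *Krt7*, *Krt8*, *Krt18* and *Krt19* and the genes of vimentin (*Vim*) and desmin (*Des*), 6 of the 53700 genes in the table. They were chosen by name, as the filaments best known from kidney epithelium and its neighbours, and all 6 had enough reads to be tested. RNA was sequenced from unsorted kidney tissue of 32 male C57BL/6 mice of the iKspCre-*Pkd1*del line, with 1 kidney per mouse. In this line a tamoxifen-inducible Cre recombinase, driven by the promoter of kidney-specific cadherin in tubular epithelium, removes exons 2 to 11 of *Pkd1*, and every group carries the loxP sites. The 8 wildtype mice were not given tamoxifen and were 109 days old. The 12 PKD and 12 PKD + Salsalate mice were given 150 mg/kg tamoxifen on days 18 and 19 and were 95 days old. The PKD + Salsalate mice also ate chow with 2.5 g/kg salsalate, a prodrug of salicylate, from day 81 for 2 weeks. Tamoxifen, age and *Pkd1* deletion therefore cannot be told apart in a comparison with wildtype. The PKD and PKD + Salsalate mice had been selected by the study for a similarly mild cystic phenotype.

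Intermediate filaments are the rope-like, stress-bearing part of the cytoskeleton. Keratins assemble only as pairs of a type I chain (Krt18, Krt19) with a type II chain (Krt7, Krt8), and the Krt8 and Krt18 pair is the basic filament of simple epithelia. In the kidney, keratins are found mainly in the distal tubule, the collecting duct and the epithelium lining the pelvis, and they are known to rise in tubules under stress. Vimentin is the filament of fibroblasts, leukocytes, endothelium and podocytes, and it also appears in tubular cells that have been injured. Desmin is the filament of muscle, and in the kidney it marks smooth muscle, pericytes and mesangial cells.

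Total counts on genes were between 11278382 and 28290874 in wildtype, 11193136 and 47213530 in PKD, and 14088385 and 109807664 in PKD + Salsalate kidneys. The library names of 5 wildtype kidneys end in R, and those of the other 3 wildtype kidneys and of all other kidneys do not. They are called R libraries and non-R libraries here, and the sources used here do not say what the letter stands for. With the 2 sets of wildtype libraries as separate groups, 6715 of 13961 genes (48.1%) differed between them, so results against wildtype are also given for each set. The summed level of 8 proximal tubule markers was between 6705 and 8969 CPM (reads of a gene per 1000000 reads on genes, scaled between libraries) in the wildtype R libraries and between 11672 and 13440 in the others. 1 PKD kidney, replicate 10, had a summed level of 3462 CPM over 8 liver genes, against at most 176 in any other kidney. Reads on *Pkd1* as a whole were more frequent in PKD than in wildtype kidneys (log2 fold change 0.42 ± 0.11 (SE), adjusted p = 0.00134). That count takes in exons outside the deleted stretch and cells without Cre, so it does not check the deletion.

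*Krt8* and *Krt18* are neighbours. On GRCm39, *Krt8* lies on the minus strand of chromosome 15 from 101905133 to 101912917 and *Krt18* on the plus strand from 101936615 to 101940462, with 23.7 kb and no other protein-coding gene between them. *Krt7* lies 576.9 kb away from *Krt8* on the same chromosome, from 101308924 to 101328194. *Krt19* lies on chromosome 11 from 100031636 to 100039491, *Vim* on chromosome 2 from 13578738 to 13587639 and *Des* on chromosome 1 from 75320511 to 75345223. A processed pseudogene on chromosome 7, *Krt8-ps*, shares 32.2% of the 31-base words of the *Krt8* transcript, and *Gm5200* on chromosome 13 shares 9.31% of those of *Krt18*. By default HTSeq does not count reads that fit a gene and its pseudogene equally well, so the levels of *Krt8* and *Krt18* may be understated. *Krt8-ps* held at most 56 reads in a kidney and at most 0.376% of the reads of *Krt8*, and *Gm5200* held 0 in every kidney. Antisense transcripts overlap exons of every member except *Krt18*, and the authors counted by strand.

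The promoters of *Krt8*, *Krt18*, *Vim* and *Krt7* are shown because the first 3 genes rose in PKD kidneys and the last did not pass the test. They come from the RefSeq promoter table on GRCm38.p6, which holds 5 of the 6 genes and not *Krt19*. Each is printed as the 250 bases before the annotated start, with *Krt8* continued to base 5 after it so that its motif is whole. Capitals mark matches, on either strand, to the TATA box or the GC box. AP-1, TEAD and CArG box sites were searched too, all in the whole window of 300 bases, 250 before and 50 after the start. The *Krt8* promoter is chr15:102004338-102004592 on the minus strand, *Krt18* chr15:102027966-102028215, *Vim* chr2:13574061-13574310 and *Krt7* chr15:101412153-101412402, these last 3 on the plus strand.
*Krt8*: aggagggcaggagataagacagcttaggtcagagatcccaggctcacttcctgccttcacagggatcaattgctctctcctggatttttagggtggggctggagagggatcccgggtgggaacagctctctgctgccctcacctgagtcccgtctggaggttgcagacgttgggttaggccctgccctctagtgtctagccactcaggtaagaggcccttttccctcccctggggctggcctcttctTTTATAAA
*Krt18*: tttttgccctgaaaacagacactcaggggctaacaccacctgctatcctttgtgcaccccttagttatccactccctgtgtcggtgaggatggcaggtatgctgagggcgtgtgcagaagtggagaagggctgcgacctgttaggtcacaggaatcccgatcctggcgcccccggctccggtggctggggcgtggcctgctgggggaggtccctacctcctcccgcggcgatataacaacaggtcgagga
*Vim*: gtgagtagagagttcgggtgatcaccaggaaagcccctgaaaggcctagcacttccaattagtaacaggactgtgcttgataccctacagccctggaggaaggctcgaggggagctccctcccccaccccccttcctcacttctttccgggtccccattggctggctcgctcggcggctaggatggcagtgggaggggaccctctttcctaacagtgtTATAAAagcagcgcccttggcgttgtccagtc
*Krt7*: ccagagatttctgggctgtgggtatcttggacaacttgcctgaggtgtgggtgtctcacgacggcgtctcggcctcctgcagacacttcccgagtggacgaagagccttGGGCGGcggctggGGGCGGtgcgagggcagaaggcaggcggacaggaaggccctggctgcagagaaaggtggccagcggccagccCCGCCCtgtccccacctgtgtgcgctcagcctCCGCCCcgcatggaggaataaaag
The TATA box was spelled TATAAA. It was found in *Krt8*, across the annotated start from base -1 to base 5, and in *Vim*, from base -32 to base -27. In *Krt8* the same letters on the opposite strand overlap it, from base -3 to base 3. Of all 32851 promoters in the table, 13.6% hold it. The GC box, spelled GGGCGG, was found 4 times in *Krt7* and 2 times in *Des*, and 35.7% of all promoters hold it. None of the motifs was found in *Krt18*, and no AP-1, TEAD or CArG match was found in any of the 5 windows. The AP-1 site was spelled TGAGTCA and is in 5.20% of all promoters. The TEAD site was spelled GGAATG and is in 14.7%, and the CArG box is in 1.63%. *Krt8* and *Vim*, which rose, thus both held TATAAA, but across the annotated start in *Krt8* and upstream of it in *Vim*. *Krt18*, which rose too, did not hold these letters. No match says only that the letters are not in this window.

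In wildtype kidneys the keratin mRNAs were present at unequal levels. Per kb of the canonical transcript, *Krt8* was highest with 57.5 ± 10.7 CPM per kb (SD, n = 8), followed by *Krt7* with 36.9 ± 4.54, *Vim* with 27.8 ± 3.28, *Krt18* with 20.3 ± 3.52, *Des* with 12.4 ± 3.25 and *Krt19* with 4.62 ± 1.42. This order held in 8 of 8 kidneys for each pair of neighbours except *Krt18* and *Des*, where it held in 7, although the ranges over kidneys overlapped for all neighbours but *Des* and *Krt19*. In PKD kidneys *Vim* took the second place, with 55.2 ± 6.87 CPM per kb (SD, n = 12) and above *Krt7* in 11 of 12 kidneys. *Krt7* at 39.6 ± 4.00 and *Krt18* at 39.1 ± 3.60 could not be ordered, with *Krt7* higher in 7 of 12 kidneys. *Krt8* stayed first at 95.5 ± 9.76, and *Des* at 10.9 ± 1.10 and *Krt19* at 8.68 ± 1.29 stayed last. The order in PKD + Salsalate kidneys was that of the PKD kidneys. In PKD kidneys all places but the first depend on transcript length. With all annotated exons of each gene joined, *Krt18* came before *Vim* and *Krt7*, at 39.1 against 25.5 and 23.0 CPM per kb, and *Krt19* came before *Des*, at 7.37 against 6.63. The order in PKD + Salsalate kidneys changed in the same way. In wildtype kidneys *Krt18* then came before *Vim*, at 20.3 against 12.8 CPM per kb, and the other places stayed.

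The first comparison, PKD against wildtype, asks how the filament genes differ in kidneys with early cysts. *Krt8*, *Krt18*, *Krt19* and *Vim* rose by between 66.0% and 98.9%, and *Krt7* and *Des* did not pass the test. The 4 of 6 members called higher compare with 24.1% of the 13961 genes tested that were called higher and 49.1% called in either direction (adjusted p under 0.05). The median log2 fold change of the 6 was 0.81, beside -0.01 over all genes tested. In each of these 4 genes all 12 PKD kidneys lay above the highest wildtype kidney, as in 5.21% of all genes tested. Because RNA came from unsorted kidney tissue, more cells that express a gene and more RNA per cell cannot be told apart in any of these results.

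*Krt8*, the type II chain of simple epithelia, was between 85.2 and 139.9 normalized CPM in wildtype kidneys, with a median of 109. In PKD kidneys it was between 149 and 217, with a median of 189. No PKD kidney overlapped the wildtype range, and the log2 fold change was 0.73 ± 0.09 (SE, edgeR's quasi-likelihood test, adjusted p = 3.90e-08). Of the 4 keratins described here *Krt8* differed most between the wildtype library sets. It was between 85.2 and 117 CPM in the 5 R libraries and between 129 and 139.9 in the other 3. The PKD kidneys were higher than either set, with log2 fold changes of 0.92 (adjusted p = 9.95e-10) and 0.46 (adjusted p = 0.000593). The direction thus held and the size depended on the wildtype set.

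*Krt18*, the type I partner of *Krt8*, was between 23.2 and 37.4 CPM in wildtype kidneys, with a median of 29.7. In PKD kidneys it was between 51.2 and 67.6, with a median of 53.8, and the highest was replicate 10, the kidney with high liver genes. The groups were separated by a wide gap, and the log2 fold change was 0.95 ± 0.10 (SE, edgeR, adjusted p = 2.21e-09). The fold change was 0.95 from the R libraries and 0.93 from the non-R libraries, whose *Krt18* levels overlapped.

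*Krt19*, the smallest keratin and a type I chain of ductal epithelia, was the least abundant member, with 61 to 277 reads per wildtype kidney. It was between 4.64 and 10.1 CPM in wildtype kidneys, with a median of 7.07. In PKD kidneys it was between 10.4 and 17.5, with a median of 13.0. The lowest PKD kidney, replicate 10 with its high level of liver genes, lay just above the highest wildtype kidney. The log2 fold change was 0.89 ± 0.15 (SE, edgeR, adjusted p = 1.31e-05). With the R libraries as reference it was 1.04 (adjusted p = 8.97e-06), and with the non-R libraries 0.68 (adjusted p = 0.00638).

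*Vim* was between 51.0 and 73.2 CPM in wildtype kidneys, with a median of 60.4. In PKD kidneys it was between 97.5 and 150.0, with a median of 120.1. Its log2 fold change of 0.99 ± 0.11 (SE, edgeR, adjusted p = 1.08e-08) was the largest of the 6, and it was 0.96 and 1.04 against the 2 wildtype sets. Markers of the cells that normally carry vimentin moved in different directions in the same kidneys. All 8 of 8 fibroblast and pericyte markers were higher, and their summed level was 328 to 481 CPM in wildtype and 732 to 1269 in PKD kidneys. Of 7 leukocyte markers 5 were called higher, with summed levels over the list of 85.0 to 123 and 158 to 203 CPM. All 8 of 8 tubular injury markers were higher as well, with summed levels of 417 to 731 and 1501 to 3267 CPM. Of 6 podocyte markers 5 were lower, with summed levels of 266 to 399.6 and 241 to 281 CPM. Of 7 endothelial markers 2 were higher and 3 lower, with summed levels of 362 to 608 and 398 to 440.5 CPM. No marker of these 5 lists was at 0 in a whole group, and the part of these cells in the rise of *Vim* was not tested.

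*Krt7*, the type II chain of collecting duct and urothelium, was between 128 and 179 CPM in wildtype kidneys, with a median of 152. In PKD kidneys it was between 139 and 187, with a median of 163. Of 12 PKD kidneys 10 lay within the wildtype range, and the log2 fold change was 0.11 ± 0.07 (SE, edgeR, adjusted p = 0.244), with a 95% interval from -0.05 to 0.26. The wildtype sets differed in *Krt7*, with 148 to 179 CPM in the R libraries and 128 to 134 in the others. Compared with the R libraries the log2 fold change was -0.0048 (adjusted p = 0.963), and compared with the non-R libraries it was 0.30 (adjusted p = 0.0157). In these 2 fits 59.6% and 40.8% of all genes tested were called. Whether *Krt7* is called thus depends on the wildtype set.

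*Des* was between 26.3 and 55.6 CPM in wildtype kidneys, with a median of 38.8. In PKD kidneys it was between 28.0 and 38.7, with a median of 35.2. All PKD kidneys lay inside the wildtype range and below its median, and the log2 fold change was -0.18 ± 0.10 (SE, edgeR, adjusted p = 0.132), with a 95% interval from -0.38 to 0.02. The call turned on single wildtype kidneys, since *Des* passed without replicate 8 (-0.25, adjusted p = 0.0281) or replicate 7 (-0.23, adjusted p = 0.0436), and it was -0.09 without replicate 5. The direction turned with the wildtype set. *Des* was between 36.5 and 55.6 CPM in the wildtype R libraries and between 26.3 and 30.5 in the others, without overlap. Against the first set the PKD kidneys were lower by a log2 fold change of -0.40 (adjusted p = 0.000114), and against the second they were higher by 0.25 (adjusted p = 0.0283). Smooth muscle markers, which belong to cells that carry desmin, were higher in the R libraries than in the others. Their summed level was 466 to 563 CPM in the R libraries, 369.6 to 427 in the others and 529 to 640 in PKD kidneys. Fibroblast and pericyte markers overlapped between the sets, at 328 to 481 CPM in the R libraries and 330 to 346 in the others. They were 732 to 1269 CPM in PKD kidneys. The part of these cells in the *Des* levels was not tested. No direction can therefore be given for *Des* against wildtype.

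**Figure D1:**
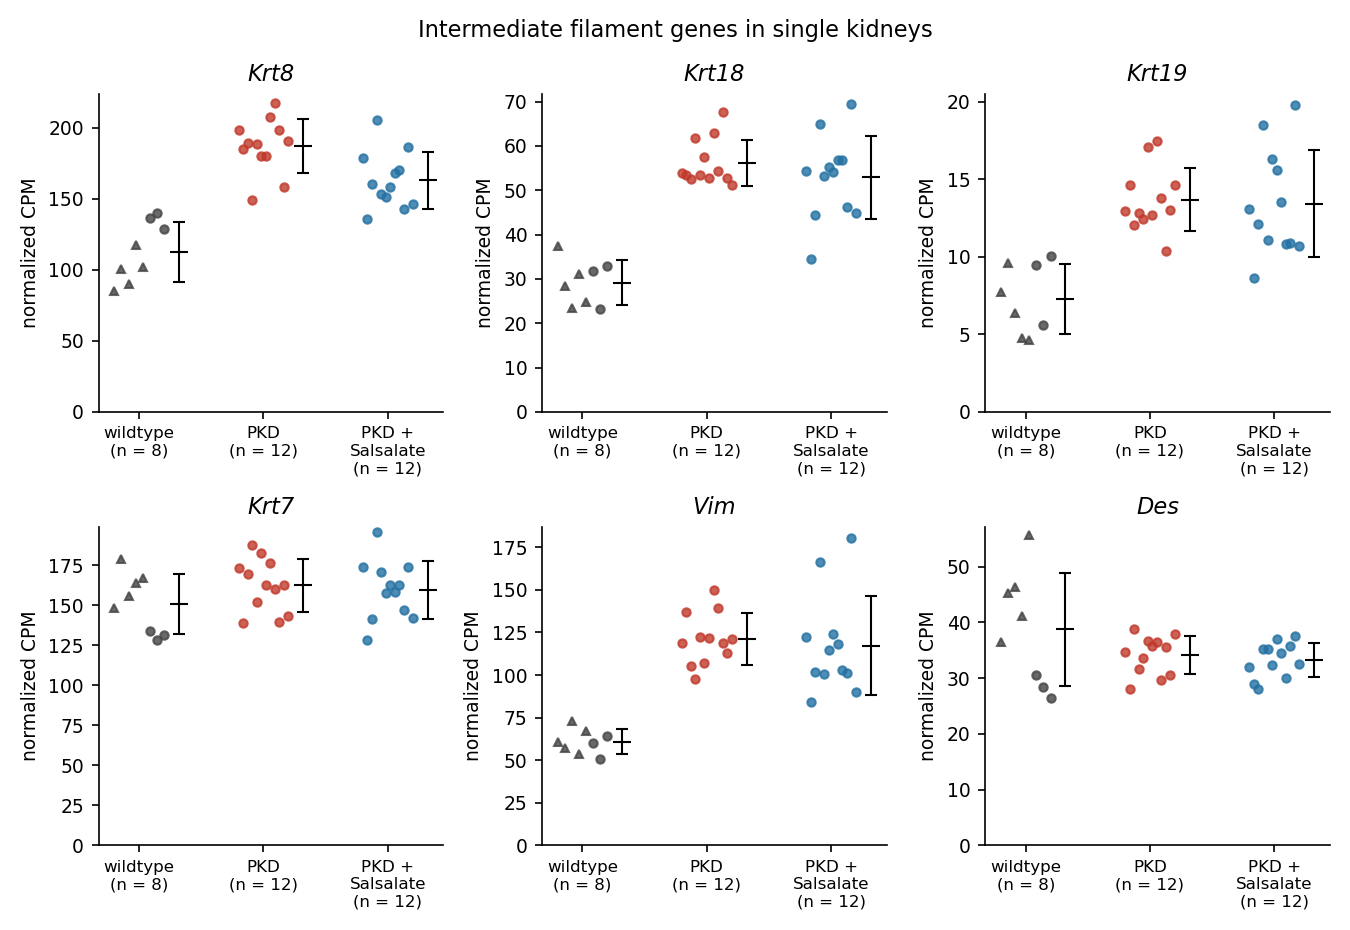
Normalized CPM (y axis, linear, from 0) of the 6 genes in each kidney, by group, with the group mean and SD as a bar at the right of each group. Triangles are wildtype R libraries, and circles are all other libraries. For *Krt8*, *Krt18*, *Krt19* and *Vim* the 12 PKD kidneys lie above all 8 wildtype kidneys, while for *Krt7* and *Des* the groups overlap and the wildtype triangles lie above the wildtype circles.

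The second comparison, PKD + Salsalate against PKD, asks whether 2 weeks of salsalate changed the filament genes. No member passed the threshold with edgeR, DESeq2 or limma-voom, beside 0.580% of all genes tested with edgeR. At an unadjusted p under 0.05, 1 member, *Krt8*, passed with each of the 3 tools, which were run on the same counts. How many of all genes tested pass that unadjusted threshold was not counted, so this does not set *Krt8* apart from other genes. *Krt8* was between 136 and 205 CPM in PKD + Salsalate kidneys, with a median of 159. 11 of 12 kidneys lay below the PKD median of 189, and 3 lay below the lowest PKD kidney. The log2 fold change was -0.20 ± 0.08 (SE, edgeR, unadjusted p = 0.0153, adjusted p = 0.302), with a 95% interval from -0.36 to -0.04.

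The other 5 members lay closer to the PKD level. *Krt18* was between 34.6 and 69.5 CPM, with a median of 54.1 and a log2 fold change of -0.09 (95% interval -0.26 to 0.09). *Krt19* was between 8.61 and 19.8 CPM, with a median of 12.6 and a log2 fold change of -0.03 (-0.29 to 0.24). *Vim* was between 84.4 and 180.5 CPM, with a median of 109 and a log2 fold change of -0.05 (-0.25 to 0.15). These 3 genes spread more widely in PKD + Salsalate kidneys, with an SD of log2 CPM of 0.269, 0.359 and 0.328 against 0.127, 0.208 and 0.178 in PKD kidneys, a difference that was not tested. *Krt7* was between 128 and 195 CPM with a log2 fold change of -0.03 (-0.16 to 0.11), and *Des* between 28.1 and 37.5 CPM with -0.04 (-0.22 to 0.15). The intervals of all but *Krt7* leave room for a fall of the size measured for *Krt8*, and a return to the wildtype level lies outside them for *Krt18*, *Krt19* and *Vim*.

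Against wildtype, the third comparison, the PKD + Salsalate kidneys showed *Krt8*, *Krt18*, *Krt19* and *Vim* higher. These 4 of 6 compare with 21.8% of all genes tested called higher and 44.9% called in either direction, and the wildtype kidneys are those of the first comparison. The log2 fold changes were 0.53 ± 0.09 (SE) for *Krt8*, 0.86 ± 0.10 for *Krt18*, 0.87 ± 0.15 for *Krt19* and 0.94 ± 0.11 for *Vim*, with edgeR's adjusted p between 2.14e-08 for *Krt18* and 2.52e-05 for *Krt19*. *Vim* did not overlap between the groups, as in 4.46% of all genes tested, and for each of the 3 keratins 11 of 12 kidneys lay above the wildtype range. Against the 3 non-R libraries, *Krt8* was higher by 0.27 (adjusted p = 0.0374, with 34.9% of all genes called). *Krt7* at 0.08 (adjusted p = 0.392) and *Des* at -0.22 (adjusted p = 0.0742) did not pass. *Krt7* was -0.0302 from the R libraries (adjusted p = 0.767) and passed from the non-R libraries at 0.28 (adjusted p = 0.0270). *Des* passed without wildtype replicate 8 (-0.28, adjusted p = 0.0134), 7 (-0.27, adjusted p = 0.0218) or 6 (-0.26, adjusted p = 0.0325). Against the R libraries it was -0.44 (adjusted p = 4.07e-05) and against the non-R libraries 0.22 (adjusted p = 0.0586).

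**Figure D2:**
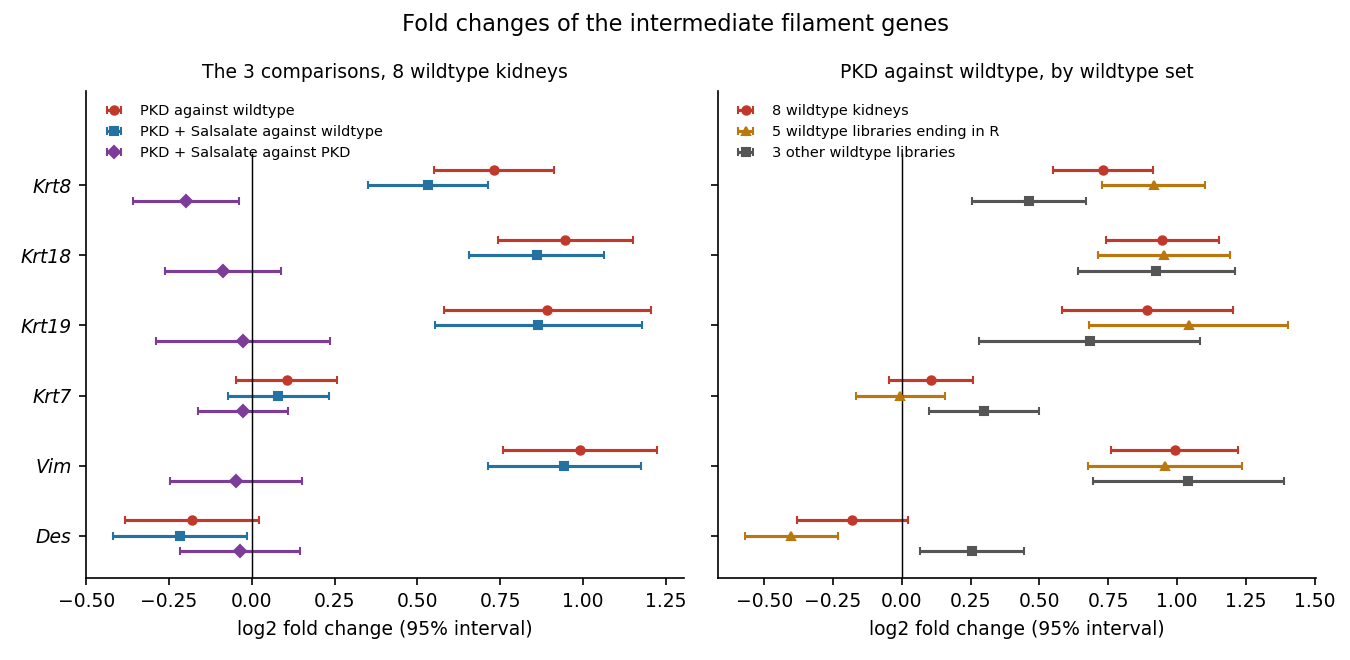
Log2 fold changes (x axis) of the 6 genes (y axis) from edgeR with 95% intervals as bars. The left panel shows the 3 comparisons and the right panel PKD against all 8 wildtype kidneys, the 5 R libraries and the 3 others. In the left panel *Krt8*, *Krt18*, *Krt19* and *Vim* lie between 0.53 and 0.99 against wildtype, and in the right panel *Des* lies at -0.40 against the R libraries and at 0.25 against the others.

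Ratios within a kidney show how the chains of a pair moved relative to each other, without the scaling between libraries. The log2 ratio of *Krt7* to *Krt19* reads was 4.42 ± 0.53 (SD, n = 8) in wildtype, 3.57 ± 0.21 (SD, n = 12) in PKD and 3.60 ± 0.26 (SD, n = 12) in PKD + Salsalate kidneys. The PKD kidneys were between 3.24 and 3.86 and the wildtype kidneys between 3.70 and 5.16, so that only the 2 lowest wildtype kidneys, replicates 8 and 6, fell within the PKD range. The difference of -0.84 between PKD and wildtype passed an exact 2-sided permutation test (p = 9.53e-05, adjusted p = 0.000548 over 6 ratio comparisons), and so did that of -0.82 between PKD + Salsalate and wildtype (exact p = 0.000183, adjusted p = 0.000548). Both low wildtype kidneys are libraries without the R. The difference for PKD was -1.09 from the R libraries and -0.44 from the 3 non-R libraries, and it passed from each set (unadjusted exact permutation test). From those 3 libraries the difference for PKD + Salsalate was -0.41 (unadjusted exact permutation p = 0.0637). PKD + Salsalate and PKD kidneys differed by 0.03 (permutation p = 0.780).

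The log2 ratio of *Krt8* to *Krt18* was 1.95 ± 0.38 (SD, n = 8) in wildtype, 1.73 ± 0.20 (SD, n = 12) in PKD and 1.63 ± 0.16 (SD, n = 12) in PKD + Salsalate kidneys. The difference between PKD and wildtype was -0.21 (exact permutation p = 0.119, adjusted p = 0.179). That between PKD + Salsalate and wildtype was -0.31 (exact permutation p = 0.0178, adjusted p = 0.0356), with groups that overlapped. It missed the threshold without wildtype replicate 7, at -0.22 (unadjusted permutation p = 0.0544), and against the wildtype R libraries, at -0.15 (unadjusted permutation p = 0.234). Wildtype replicate 1, at 1.19, decided the PKD value, which was -0.32 without it (unadjusted permutation p = 0.00159). Against the non-R libraries the difference was -0.49 for PKD and -0.59 for PKD + Salsalate, and both passed (unadjusted exact permutation test). For PKD it was -0.05 against the R libraries and did not pass. The *Krt8* to *Krt18* ratio was thus lower than in wildtype in every setting run. It gives no firm difference, because size and call depended on the wildtype set and on single wildtype kidneys.

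**Figure D3:**
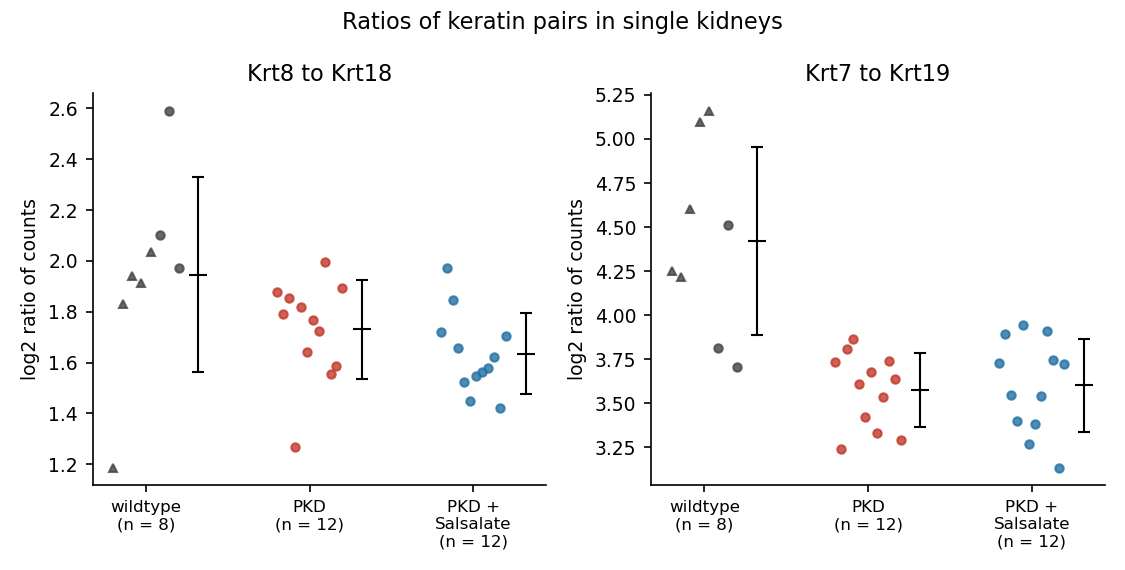
Log2 ratio of read counts (y axis) of *Krt8* to *Krt18* and of *Krt7* to *Krt19* in each kidney, by group, with the mean and SD as a bar at the right of each group. Triangles are wildtype R libraries. The *Krt7* to *Krt19* ratio is 4.42 on average in wildtype and 3.57 in PKD kidneys, and the *Krt8* to *Krt18* ratio overlaps between all groups.

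The other intermediate filament genes were listed by class, namely 31 further keratins, 9 filaments of type III and IV and 3 lamins of the nuclear envelope. Of these 43 genes 12 had enough reads to be tested. The other 31, among them 25 keratins, were under the filter, and 3 type I and 7 type II keratins were at 0 in every kidney. PKD against wildtype, 5 of the 12 were higher and 2 lower, with a median log2 fold change of 0.07. These 7 of 12 compare with 49.1% called over all genes tested. The larger changes were those of *Krt20*, *Nefm* and *Lmnb1*. *Krt20*, a type I keratin best known from urothelium and gut, was between 0.0454 and 0.889 CPM in wildtype kidneys, with 1 to 22 reads each and 48 in all, and between 4.84 and 19.4 CPM in PKD kidneys, with 2538 reads in all. The groups did not overlap, and the log2 fold change was 4.57 ± 0.48 (SE, edgeR, adjusted p = 2.40e-09), a size that rests on the few wildtype reads.

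Urothelial markers moved in both directions in the same comparison, and 8 of 8 tubular injury markers were higher, as given above. The part of urothelial or injured tubular cells in the rise of *Krt20* was not tested. Of 10 urothelial markers 7 were tested, with *Upk3b* and *Sprr1a* higher and *Upk1b*, *Upk3a* and *Gsta4* lower. The summed level of the urothelial list was 62.3 to 119 CPM in wildtype and 64.7 to 94.7 in PKD kidneys. *Nefm*, a neurofilament chain, was between 0.508 and 1.61 CPM in wildtype and between 1.64 and 4.38 in PKD kidneys (log2 fold change 1.20 ± 0.22 (SE), adjusted p = 3.85e-05). It was 0.85 from the R libraries and 1.83 from the non-R libraries. *Lmnb1*, the B-type lamin whose level follows proliferation, was between 3.68 and 6.64 CPM in wildtype and between 5.76 and 14.5 in PKD kidneys (0.93 ± 0.16 (SE), adjusted p = 1.24e-05). The other lamins were higher by less. *Lmna*, at 77.1 to 94.2 CPM in wildtype and 104 to 137 in PKD kidneys, had a log2 fold change of 0.29 (adjusted p = 0.000305), and *Lmnb2*, at 13.5 to 20.2 and 17.1 to 24.5 CPM, one of 0.39 (adjusted p = 3.91e-05), with 0.50 from the R libraries and 0.22 from the non-R libraries. *Synm*, a partner of desmin and vimentin, was called lower (-0.60, adjusted p = 0.00284), with 1.42 to 3.88 CPM in wildtype and 1.11 to 2.19 in PKD kidneys. Its mean was 3.21 CPM in the R libraries, 1.64 in the non-R libraries, where it was under the filter and not tested, and 1.67 in PKD kidneys, so a higher wildtype level was seen in the R libraries only. *Nes*, the nestin of podocytes and endothelium, was called lower (-0.33, adjusted p = 0.0408), but it was -0.64 from the R libraries and 0.38 from the non-R libraries. It was 28.6 to 88.9 CPM in wildtype and 42.7 to 52.1 in PKD kidneys, so no direction can be given. *Nes* also lost its call in 9 of the 32 fits that left out 1 kidney.

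*Krt10*, *Krt15*, *Krt23*, *Krt5* and *Krt80*, the 5 further keratins tested, did not pass in any of the 3 comparisons with all wildtype kidneys, with log2 fold changes between -0.28 for *Krt23* and 0.09 for *Krt80* in PKD against wildtype. From the non-R libraries PKD was called lower for *Krt10* (-0.32, adjusted p = 0.0217) and *Krt23* (-0.59, adjusted p = 0.0319), and from the R libraries these were 0.18 (adjusted p = 0.105) and -0.02 (adjusted p = 0.951). PKD + Salsalate was called lower than the non-R libraries for *Krt10* (-0.28, adjusted p = 0.0479). PKD + Salsalate against PKD, none of the 12 passed with edgeR, DESeq2 or limma-voom, and 2 had an unadjusted p under 0.05 with each tool. These were *Krt20*, at 1.53 to 11.7 CPM (log2 fold change -0.82 ± 0.29 (SE), edgeR's adjusted p = 0.229), and *Lmnb1*, at 5.41 to 10.4 CPM (-0.42 ± 0.13 (SE), adjusted p = 0.149). The share of all genes tested that pass this unadjusted threshold was not counted. For *Krt20* 10 of 12 PKD + Salsalate kidneys lay below the PKD median and 7 below the lowest PKD kidney. *Lmnb1* passed in 1 of the 32 fits that left out 1 kidney, the fit without PKD + Salsalate replicate 11 (-0.48, edgeR's adjusted p = 0.0487).

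Filaments are tied to desmosomes and to each other by linker proteins, and small heat shock proteins guard their assembly. Of 18 such genes 16 were tested, and in PKD against wildtype 6 were higher and 2 lower, with a median log2 fold change of 0.23. These 8 of 16 are a share like the 49.1% called over all genes tested. *Hspb1*, the small heat shock protein that binds keratin and vimentin filaments, was between 13.1 and 17.8 CPM in wildtype and between 31.9 and 49.1 in PKD kidneys (1.33 ± 0.12 (SE), adjusted p = 1.65e-10). *Plec*, the gene of plectin, which crosslinks filaments and anchors them at junctions, was between 67.8 and 142 CPM in wildtype and between 159 and 286 in PKD kidneys (1.19 ± 0.13 (SE), adjusted p = 4.71e-09). Neither gene overlapped between the groups, and the log2 fold change of *Plec* was 1.38 from the R libraries and 0.90 from the non-R libraries. *Pkp4*, a plakophilin of adherens junctions, was between 448 and 906 CPM in wildtype and between 355 and 557 in PKD kidneys, with overlap (-0.77 ± 0.11 (SE), adjusted p = 3.71e-07), and its log2 fold change was -1.02 from the R libraries and -0.25 from the non-R libraries.

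The remaining linkers had smaller fold changes. *Cryab*, *Fam83h*, *Dsg2* and *Pkp2* were called higher, by log2 fold changes between 0.22 and 0.43, and *Pkp3* was called lower, at -0.15, but each of these 5 calls was lost against one wildtype set. From the non-R libraries the log2 fold change was 0.20 for *Cryab* (adjusted p = 0.242), 0.01 for *Fam83h* (adjusted p = 0.938) and 0.22 for *Dsg2* (adjusted p = 0.170). From the R libraries it was 0.11 for *Pkp2* (adjusted p = 0.0772) and -0.09 for *Pkp3* (adjusted p = 0.252). Of the genes called higher, those shared by both sets were *Hspb1* and *Plec*. The core desmosome genes *Dsp* and *Jup* did not pass against all wildtype kidneys, at -0.01 and 0.05. The value of *Dsp* joins -0.16 from the R libraries (adjusted p = 0.0547) and 0.25 from the non-R libraries (adjusted p = 0.0304), so no direction can be given for it. *Tchp*, *Dsc2*, *Dst*, *Macf1*, *Evpl* and *Ppl* did not pass against all wildtype kidneys either. From the R libraries *Evpl* was called higher (0.43, adjusted p = 0.00206). From the non-R libraries *Macf1* (0.43, adjusted p = 0.0172) and *Ppl* (0.62, adjusted p = 0.00304) were called higher. No linker gene passed in PKD + Salsalate against PKD with edgeR, DESeq2 or limma-voom, and none had an unadjusted p under 0.05 with any of them.

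**Figure D4:**
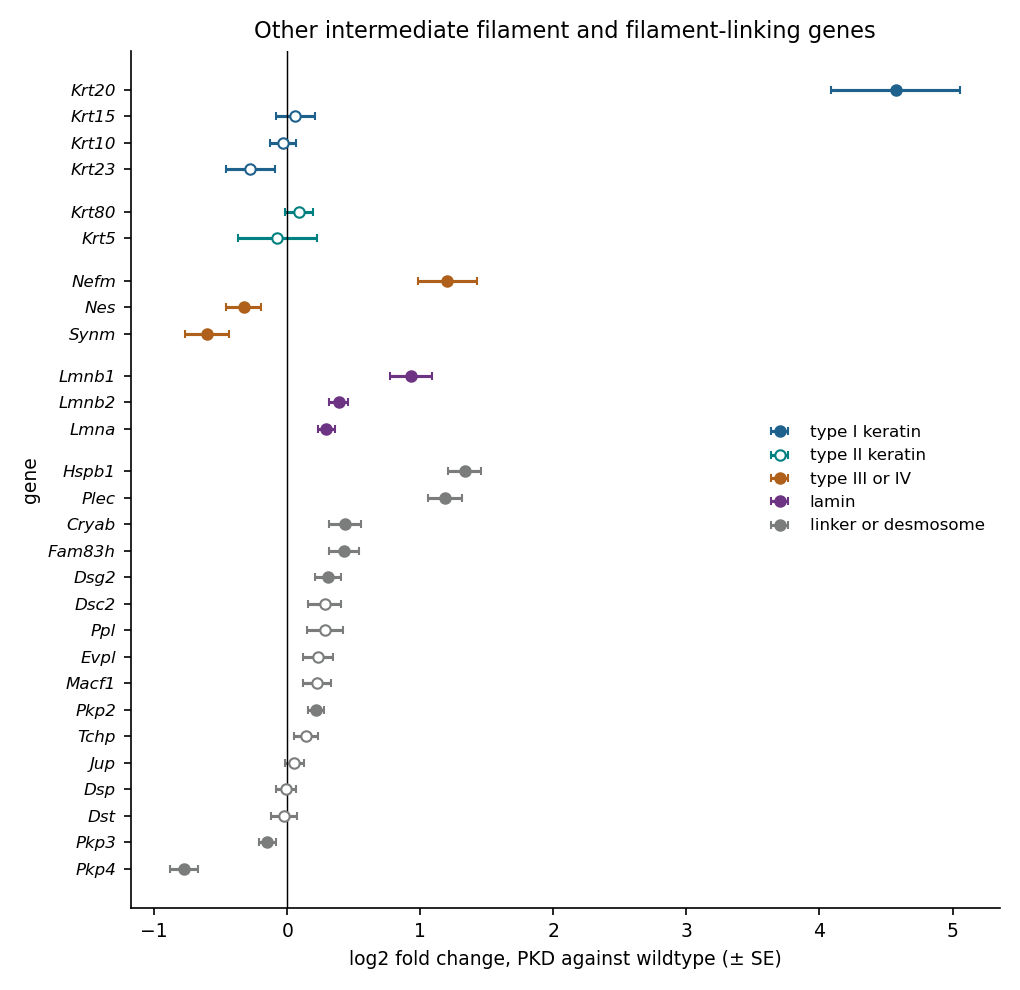
Log2 fold change of PKD against wildtype (x axis, edgeR, bars are SE) for the 12 other intermediate filament genes and the 16 linker and desmosome genes tested (y axis). Filled circles passed an adjusted p of 0.05 and open circles did not. *Krt20* lies at 4.57, *Hspb1* at 1.33 and *Plec* at 1.19, and most keratins and desmosome genes lie near 0.

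Within a group, kidneys can differ in how far the filament genes are raised. Over the 12 PKD + Salsalate kidneys, 10 of 15 pairs of members were correlated in log2 CPM, at an adjusted permutation p under 0.05 over 30 relations. The share of all gene pairs correlated in these kidneys was not counted, so this count does not set the members apart from other genes. The closest pair was *Krt19* and *Vim* (Pearson r = 0.931, permutation p = 1e-05, the smallest that these permutations can give, Spearman rho = 0.902, permutation p = 0.00015). Their r was 0.88 without the 2 kidneys farthest from the median. *Krt18* correlated with *Krt7* (r = 0.90), *Vim* (r = 0.867), *Krt19* (r = 0.842) and *Krt8* (r = 0.829). The same kidneys stood at the ends, with PKD + Salsalate replicate 2 lowest for *Krt7*, *Krt8*, *Krt18*, *Krt19* and *Vim*. Replicate 11 was highest for *Krt18*, *Krt19*, *Vim* and *Des*, and replicate 4 for *Krt7* and *Krt8*. Replicate 11 also had the highest summed level of tubular injury markers, 4169 CPM against a group median of 1921, and of fibroblast markers, 1603 against 918. Without the 2 kidneys farthest from the median of the first gene, 3 of the 15 pairs passed. The r of the 10 pairs then lay between 0.468 for *Krt7* with *Krt19* and 0.88 for *Krt19* with *Vim*, over 10 kidneys.

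Over the 12 PKD kidneys 1 of 15 pairs passed, *Krt8* and *Vim* (r = 0.721, permutation p = 0.0083, adjusted p = 0.0226, rho = 0.601, adjusted permutation p = 0.12). Its r was 0.598 without the 2 farthest kidneys, and no PKD pair passed there. *Krt8* and *Krt18*, the pair of simple epithelia, had r = 0.0335 in PKD and r = 0.829 in PKD + Salsalate kidneys. The difference of the correlation between the 2 groups was tested by permuting the group labels of values centred on the group means. No pair passed after adjustment over the 15 pairs. The smallest adjusted permutation p was 0.0945, for *Krt7* with *Krt8* and *Krt7* with *Vim*, and that of *Krt8* with *Krt18* was 0.111 (unadjusted p = 0.0369). The groups are thus not shown to differ in these correlations.

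**Figure D5:**
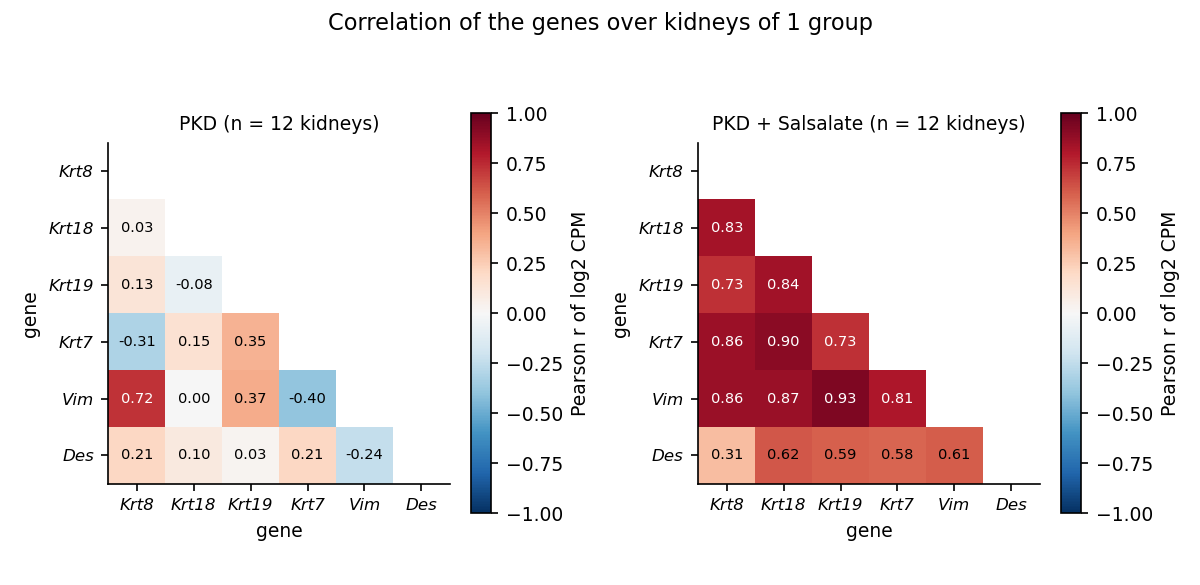
Pearson correlation of log2 CPM over the 12 PKD kidneys (left) and the 12 PKD + Salsalate kidneys (right) for each pair of the 6 genes (both axes), with r written in each cell and coded by colour from -1 to 1. Over the PKD + Salsalate kidneys the pairs among *Krt7*, *Krt8*, *Krt18*, *Krt19* and *Vim* lie between 0.73 and 0.931, and over the PKD kidneys *Krt8* with *Vim* is highest at 0.721.

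The genes most like each member were sought by the correlation of log2 CPM, centred on the group means, over all 32 kidneys, given here as a description because these values share libraries and depth. For *Krt7* they were *Stn1* (r = 0.855), *Il3ra* (0.84) and *Gramd1a* (0.799), and for *Krt8* *Ap1m1* (0.829), *Elp5* (0.816) and *Flot2* (0.81). For *Krt18* they were *Brca2* (0.716), *Gm9732* (0.696) and *Ttc39a* (0.692). For *Krt19* they were *Ltbp2* (0.875), a matrix protein, *Kcnn4* (0.795), a potassium channel, and *Sprr1a* (0.756), an epithelial stress protein. For *Vim* they were *Myof* (0.875), a membrane repair protein, *C1qc* (0.872), a macrophage complement chain, and *Csf1* (0.839), the macrophage growth factor. For *Des* they were *Myl9* (0.833) and *Pdlim2* (0.821), which belong to contractile and actin-bound structures, and *Eml1* (0.811). The wildtype library sets entered these values. Over the 24 PKD and PKD + Salsalate kidneys alone, *Stn1* stayed first for *Krt7* (0.861) and *Myof* for *Vim* (0.911), *Myh9* came first for *Krt8* (0.859), *Gm7233* for *Krt18* (0.829) and *Fblim1* for *Krt19* (0.812). *Des* had no gene above 0.692 there. Ranked among all genes tested by this correlation, the members lay between place 4 (*Vim* for *Krt8*) and place 3587 (*Des* for *Krt8*) there.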

How the data were processed

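RNA of 32 kidneys was sequenced from poly(A)-selected, strand-marked libraries. Per the study's methods, reads were trimmed with cutadapt 2.10, aligned with STAR 2.7.5a to GRCm39 and counted by strand on Ensembl genes with HTSeq 0.12.4. The deposited values are raw counts, without normalization. Groups came from the sample labels, and each replicate is a different mouse.

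The tests were run with edgeR 4.0.16 under R 4.3.3. Genes with log2 CPM over 1 in at least 25% of kidneys were kept (13961), normalized by TMM, and the 3 groups were fitted together by the quasi-likelihood method, with Benjamini-Hochberg adjustment over all genes kept and a threshold of 0.05. Normalized CPM are counts per 1000000 of the TMM-scaled total, and log2 CPM for correlations used a prior count of 2. Intervals are 95% with 29 residual degrees of freedom. Ratios used counts plus 0.5 and exact permutation tests, or 100000 permutations between groups of 12. Counting error limits *Krt19* most, with 61 to 1325 reads per kidney, and *Krt7* least, with 1567 to 15514. The fitting code was tested on simulated data. Gene positions and canonical transcript lengths came from GENCODE mouse release 39 (GRCm39), in which 52610 of 53700 gene identifiers were found.

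The members, gene lists and tests were chosen with earlier results of these data known. Named genes are the members, all other filament and linker genes that passed the filter (with full values for the 3 largest called changes of each list) and the 3 most similar genes per member. Alternatives were DESeq2 1.42.0 factors and test, upper-quartile factors, limma 3.58.1 (voom), other filters, only the groups compared, a replicate block, each wildtype library set and each kidney left out. The 2 wildtype sets as groups, similar patterns over 24 kidneys, joined exon lengths and the test of the difference between correlations were added after the data had been examined. Protein sequences were not analysed here. The result of 1 leukocyte marker is not reported here.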

Additional observations from a re-analysis of the deposited data

Results flagged for a closer look

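The difference between the wildtype library sets (R minus non-R libraries) is also, with its sign turned, the difference between the 2 values of PKD against wildtype that the sets give, and it passed the test for 3 of the 6 genes, beside 48.1% of all genes tested. On the log2 scale it was 0.66 ± 0.11 (SE) for *Des* (edgeR, adjusted p = 1.97e-05), 0.31 ± 0.11 for *Krt7* (adjusted p = 0.0156) and -0.45 ± 0.11 for *Krt8* (adjusted p = 0.00177). In each of the 3 genes the 5 R libraries and the 3 others did not overlap. These 3 genes are the ones that passed the test, and the share of all genes tested without such overlap was not counted. The lack of overlap is therefore a description only and does not set these genes apart. For *Krt18* (-0.02, adjusted p = 0.934), *Krt19* (-0.35, adjusted p = 0.226) and *Vim* (0.09, adjusted p = 0.685) the difference did not pass. Endothelial markers had summed levels of 466 to 608 CPM in the R libraries and 362 to 384 in the others, and smooth muscle and proximal tubule markers were separated as given above. What sets these libraries apart was not tested.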

How the results depend on the processing

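*Krt8*, *Krt18*, *Krt19* and *Vim* stayed higher and past the threshold against wildtype in every alternative run, for PKD and for PKD + Salsalate, including each kidney left out. Against the wildtype R libraries, *Krt7* turned to -0.0048 for PKD and -0.0302 for PKD + Salsalate, and *Des* passed at -0.40 and -0.44. Against the others, *Krt7* passed at 0.30 and 0.28, and *Des* turned to 0.25 and 0.22, as *Nes* did, to 0.38 and 0.37. With 1 kidney left out, *Des* ranged from -0.247 to -0.0875 for PKD, passing without wildtype replicates 7 or 8, and from -0.28 to -0.12 for PKD + Salsalate, passing without wildtype replicates 6, 7 or 8. For PKD + Salsalate against PKD, values near 0 changed sign with 1 kidney left out, with ranges of -0.0504 to 0.0001 for *Krt7*, -0.089 to 0.0192 for *Krt19*, -0.0545 to 0.0018 for *Nes*, -0.0696 to 0.0385 for *Synm*, -0.16 to 0.0013 for *Nefm* and -0.0165 to 0.0269 for *Lmnb2*, none of them called. The count of other filament genes called higher against wildtype was 9 in place of 5 without a filter, for PKD and for PKD + Salsalate, and 4 for PKD + Salsalate against the non-R libraries, where *Lmna* and *Lmnb1* missed the threshold and *Nes* was higher. The count called lower was 1 in place of 2 for PKD with upper-quartile factors, limma-voom, no filter, the replicate block or only the groups compared, and for PKD + Salsalate with the last 4 of these or without the wildtype R libraries. With 1 kidney left out it was 1 to 2 for both, and 0 to 1 for PKD + Salsalate against PKD. Linker genes called lower for PKD were 1 in place of 2 with upper-quartile factors, no filter, the replicate block or only the wildtype R libraries, and 1 to 2 with 1 kidney left out. The *Krt8* to *Krt18* ratio passed for PKD against wildtype as a difference of medians (-0.18) and against the non-R libraries (-0.49), and lost the call for PKD + Salsalate against those ending in R (-0.15). With 1 kidney left out it ranged from -0.32 to -0.12 for PKD against wildtype, from -0.139 to -0.0727 for PKD + Salsalate against PKD and from -0.42 to -0.22 for PKD + Salsalate against wildtype. The *Krt7* to *Krt19* ratio lost its call for PKD + Salsalate against the non-R libraries (-0.41), and ranged from -0.0038 to 0.0696 for PKD + Salsalate against PKD with 1 kidney left out. Without the 2 farthest kidneys, correlated pairs were 0 in place of 1 for PKD and 3 in place of 10 for PKD + Salsalate. The causes of these changes were not tested.

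Kidneys with the same replicate number did not deviate together, with correlations from -0.55 to 0.47 and 8 of 28 pairs over 0.1, so the numbers do not pair the kidneys. With the replicate number as a block, log2 fold changes for PKD against wildtype were 0.74 for *Krt8*, 0.95 for *Krt18*, 0.96 for *Krt19* and 0.99 for *Vim*, and no call of a member changed.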
